A study of Homo sapiens with 14 samples.

Results

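The integrated stress response and the genes that supply cells with amino acids were followed as a set of 43 listed genes in HEK293T, a cell line from human embryonic kidney to which the SV40 large T antigen was added. The 43 genes were chosen by name, as genes of the ATF4 pathway, amino acid transport, serine and asparagine synthesis and tRNA charging, and all 43 were found by symbol among the 63140 genes of the count table. Of these, 42 had enough counts to be tested, and NUPR1, a stress-induced chromatin protein, did not, with 25 counts over all libraries. RNA was sequenced in bulk 24 h after transfection of 1 of 3 duplexes. The 4 libraries of miR-34a-RS (replicates 1, 2, 3 and 5) came from cells given a miR-34a duplex whose guide had, at positions 13 and 14 from its 5′ end, rSpacer, a residue that keeps the backbone and lacks a base. The 5 of miR-34a-WT came from cells given the unmodified duplex, and the 5 of the control group from cells given AllStars, a negative control siRNA sold by Qiagen. All groups were transfected cells of the same line, so no group shows cells without a duplex. The study asked what pairing beyond the seed of a microRNA, its guide positions 2 to 8, adds to its effect.

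In the integrated stress response, kinases that sense a particular stress phosphorylate the alpha subunit of the translation factor eIF2. General protein synthesis then falls, while the mRNA of the transcription factor ATF4 is translated better. ATF4 pairs with C/EBP family proteins on composite DNA elements and turns on genes that import amino acids, synthesise serine, asparagine and proline, feed one-carbon metabolism and charge tRNAs, and a phosphatase resets eIF2. Because much of this control acts on protein and on translation, the mRNA levels given here are no measure of kinase activity or of ATF4 protein.

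The sequences through which a miR-34a guide could pair with these mRNAs are shown first. The mature miR-34a-5p of RefSeq, at chr1:9151735-9151756 on the minus strand of GRCh38.p14, is printed with its seed in capitals and again with the 2 positions that are abasic in miR-34a-RS in capitals.
miR-34a-5p, seed: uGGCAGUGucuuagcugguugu
miR-34a-5p, positions 13 and 14: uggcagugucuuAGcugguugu

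Seed matches were searched in the 3′ UTR of 1 GENCODE 29 transcript per gene (GRCh38), as CACTGCCA (8mer), CACTGCC (7mer-m8), ACTGCCA (7mer-A1) and ACTGCC (6mer), on the strand of the transcript, where the shorter words lie inside the longer ones and each match was put in the longest class. Of the 42 tested members, 5 had a 7mer-m8 and no member had an 8mer. They are shown because 4 of the 5 fell with miR-34a-WT, with the match in capitals. The stretch of EIF2AK1 lies at chr7:6024336-6024363 on the minus strand, that of SLC7A1 at chr13:29511163-29511190 on the minus strand, that of SLC1A4 at chr2:65021203-65021230 on the plus strand, that of SHMT2 at chr12:57234161-57234188 on the plus strand and that of ALDH1L2 at chr12:105020795-105020822 on the minus strand. In SHMT2 the capitals also mark AGCT, the partner of guide positions 13 to 16, of which positions 13 and 14 are abasic in miR-34a-RS, with 5 target bases between it and the seed match.
EIF2AK1: atgtgtgctccctgccctcgtCACTGCC
SLC7A1: ccagccaccaaggccctgacgCACTGCC
SLC1A4: ccgccagtcatggacacagggCACTGCC
SHMT2: gctccctcccccAGCTgatctCACTGCC
ALDH1L2: tgcaagccagcaccagcacacCACTGCC

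The 3′ UTR of PPP1R15B, the 1 member called between the 2 microRNAs without the replicate number as a block (4 were called with it), held a 7mer-A1 at chr1:204405440-204405467 on the minus strand and a 6mer. The 3′ UTRs of TRIB3 and SLC7A11, the members with the largest changes, held no match of 6 bases or longer, although that of SLC7A11 is 7859 bases long. TRIB3 had 3 matches in its coding sequence, of which the 7mer-m8 matches at chr20:388178-388205 and chr20:388248-388275, on the plus strand, are shown, with the match in capitals. Of all tested genes with a 3′ UTR, 5.77% had 3 or more matches of 6 bases or longer upstream of the 3′ UTR and 20.8% had a 7mer-m8 or 8mer there. Among the 42 tested members, 5 (11.9%) had a 7mer-m8 or 8mer upstream of the 3′ UTR: PPP1R15A, which rose with both microRNAs, TRIB3, which fell with both, SLC1A5, which fell with miR-34a-RS, and SHMT2 and PCK2, which fell with miR-34a-WT. A match of 6 bases or longer lay there in 15 members, of which 3 rose and 3 fell with miR-34a-RS and 5 rose and 5 fell with miR-34a-WT. The share of all tested genes with such a match was not counted. Nor were the calls of all genes by matches upstream of the 3′ UTR, so these counts are descriptions.
PPP1R15B, 3′ UTR: ctacctaggatatttccaaggACTGCCA
TRIB3, coding, first: agatcgtgcaactgctgtggcCACTGCC
TRIB3, coding, second: gggcgggcctaccaggccctgCACTGCC

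The 14 libraries held 22.24 to 36.26 M counts (M, 1000000), so that before scaling 1 CPM (a count per 1000000 counts) stood for 22.24 to 36.26 counts. HEK293T markers such as VIM and LIN28B were present, NEFM and NEFL fell with both microRNAs, and COL1A2, DCN, PTPRC and CD3E, markers of fibroblasts and blood cells, were at or near 0. The summed level of the 9 fibroblast markers was 44.9 to 49.8 CPM with miR-34a-RS, 43.2 to 48.3 CPM with miR-34a-WT and 47.2 to 58.7 CPM in control. Fibroblast markers other than COL1A2 and DCN were thus not all near 0. The summed level of the blood cell markers was 3.65 to 3.94 CPM with miR-34a-RS and 2.68 to 3.68 CPM with miR-34a-WT, against 2.79 to 3.26 CPM in control. The part of either sum in the results was not tested. The labels do not name separate cultures, and the p-values therefore reflect library-to-library spread that could be purely technical. The library kit keeps no strand information, and 17 of the 42 tested members share exon bases with a gene on the other strand, so their values are uncertain to that extent: EIF2AK1, EIF2AK3, EIF2S1, ATF5, DDIT3, CEBPB, VLDLR, SLC7A11, SLC7A5, SLC1A5, SHMT2, MTHFD2, ALDH1L2, PYCR1, WARS1, GARS1 and MARS1.

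Relative to control, the members moved in both directions with each microRNA. With miR-34a-WT 11 of the 42 tested members rose and 10 fell at an adjusted p under 0.05 (edgeR's quasi-likelihood test, Benjamini-Hochberg adjusted over the 18321 genes tested), against 40.2% of all tested genes called, 18.9% higher and 21.3% lower. With miR-34a-RS 9 rose and 7 fell, against 34.6% of all tested genes called, 16.2% higher and 18.4% lower. Calls against control are given without the replicate number as a block, unless another setting is named. With the block 14 members rose and 16 fell with miR-34a-WT, and 15 rose and 13 fell with miR-34a-RS. Of the 18321 genes, 4169 rose and 4648 fell with miR-34a-WT in that fit, and 3678 rose and 4037 fell with miR-34a-RS. Some members that missed the test against control without the block thus passed it with the block. Nothing particular to the list is read from any of these counts. The median log2 fold change of the tested members was 0.02 with miR-34a-WT, beside -0.02 for all tested genes, and -0.01 with miR-34a-RS, beside -0.01 for all tested genes. Both comparisons use the same 5 control libraries. In bulk RNA, fewer cells that use a gene and less of its RNA per cell cannot be told apart. Calls with a change of at least 0.5 on the log2 scale were few: with miR-34a-WT SLC7A11 was higher and TRIB3 lower, against 3.4% of all tested genes higher and 7.69% lower by that rule, and with miR-34a-RS SLC7A11 was higher, against 3.3% higher and 6.24% lower. The tests of the difference between the microRNAs are given further down, and a member called with 1 microRNA alone is not thereby shown to differ between them. Between the microRNAs no member met the rule of 0.5, against 0.196% of all tested genes higher and 0.0109% lower.

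**Figure D1:**
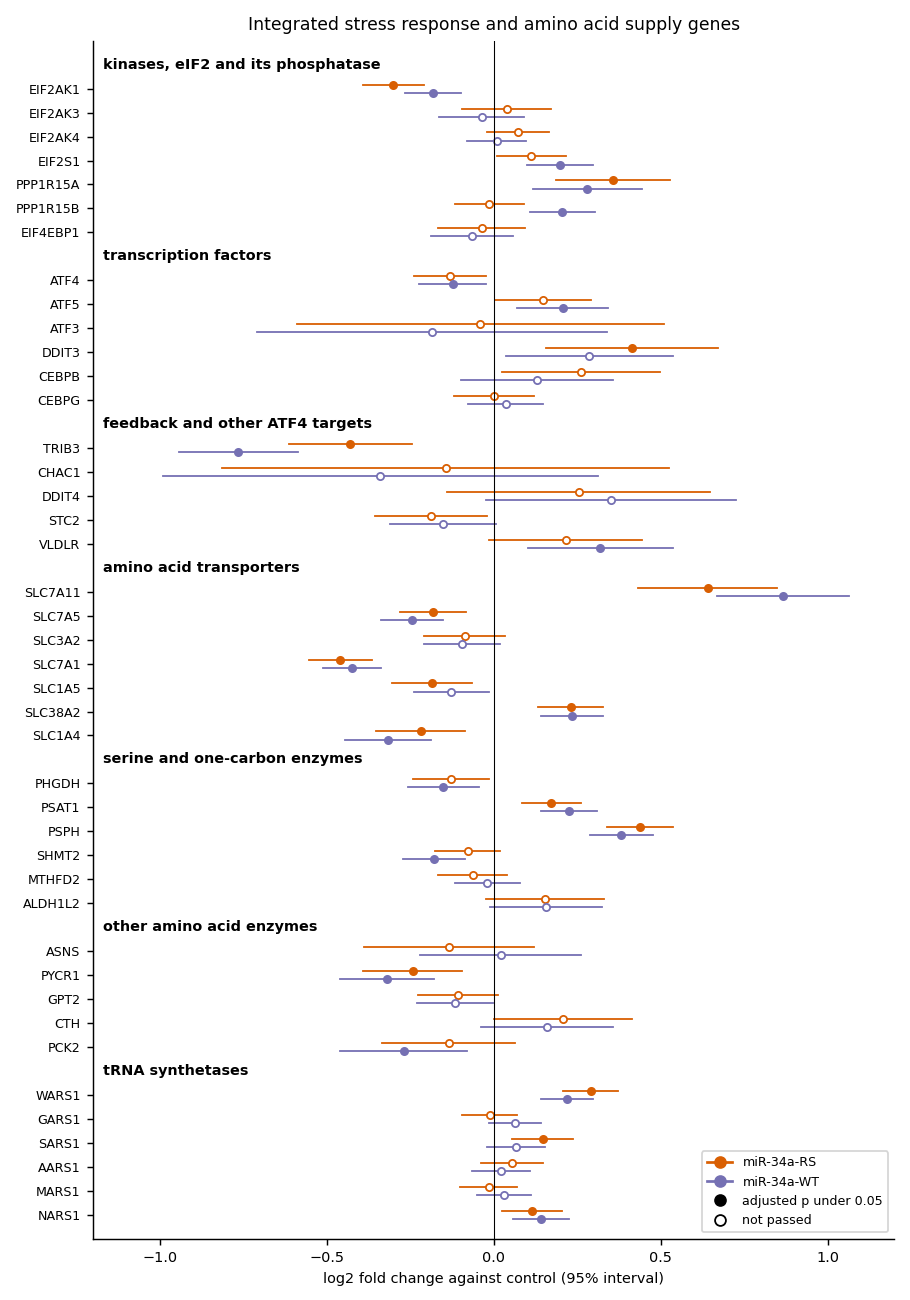
Log2 fold change (x axis) of each tested member (y axis, grouped by role) for miR-34a-RS against control (orange) and miR-34a-WT against control (violet), with 95% intervals as lines, and with filled points where the adjusted p is under 0.05. TRIB3 and SLC7A11 lie farthest from 0, at -0.76 and 0.87 with miR-34a-WT, and most other members lie within 0.5 of it.

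Among the 7 tested genes for the eIF2 kinases, eIF2 alpha, its phosphatase subunits and the translation repressor EIF4EBP1, 3 rose and 1 fell with miR-34a-WT, and 1 rose and 1 fell with miR-34a-RS. EIF2AK1, the heme-regulated kinase that also relays mitochondrial stress, ranged over 184 to 201 CPM with miR-34a-RS and 202 to 221 CPM with miR-34a-WT, against 222 to 249 CPM in control. The 3 ranges do not overlap, with miR-34a-RS lowest. Without the replicate number as a block, the difference between the microRNAs missed the test (adjusted p = 0.218 in edgeR's quasi-likelihood test, Benjamini-Hochberg adjusted). With the block it passed the same test, at -0.12 on the log2 scale (adjusted p = 0.0202). The log2 fold change of EIF2AK1 against control was -0.30 (SE 0.04, adjusted p = 5.76e-06) with miR-34a-RS and -0.18 (SE 0.04, adjusted p = 0.000883) with miR-34a-WT, both in edgeR's quasi-likelihood test, Benjamini-Hochberg adjusted. The other kinases did not pass the test: EIF2AK3 (PERK), the sensor of unfolded proteins in the endoplasmic reticulum, had log2 fold changes of 0.04 with miR-34a-RS and -0.04 with miR-34a-WT, and EIF2AK4 (GCN2), the sensor of uncharged tRNA, of 0.07 with miR-34a-RS and 0.01 with miR-34a-WT. EIF2S1, the alpha subunit itself, rose by 0.20 (SE 0.05) on the log2 scale with miR-34a-WT and stood at 0.11 (SE 0.05) with miR-34a-RS, which missed the test.

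The phosphatase subunits PPP1R15A and PPP1R15B bring protein phosphatase 1 to eIF2 alpha, the first after stress (GADD34) and the other constitutively (CReP). PPP1R15A rose with both microRNAs, by 0.36 (SE 0.08) with miR-34a-RS and 0.28 (SE 0.08) with miR-34a-WT on the log2 scale, although the libraries overlapped, at 23.9 to 32.1 CPM with miR-34a-RS and 24.2 to 28.9 CPM with miR-34a-WT, against 20.1 to 25.5 CPM in control. PPP1R15B, whose values in each library are given because of what they showed, measured 186, 169.8, 167 and 159 CPM in miR-34a-RS replicates 1, 2, 3 and 5. In miR-34a-WT replicates 1 to 5 it measured 208, 199, 209, 187 and 189 CPM, against 178, 172, 181, 166 and 164 CPM in control. Every miR-34a-WT library lay above every library of the other 2 groups, while miR-34a-RS and control overlapped throughout. The rise with miR-34a-WT was 0.20 (SE 0.05, adjusted p = 0.00102 in edgeR's quasi-likelihood test, Benjamini-Hochberg adjusted) on the log2 scale, and with miR-34a-RS the fold change was -0.01 (95% interval -0.12 to 0.09). EIF4EBP1, which binds the cap-binding factor eIF4E when unphosphorylated, did not pass the test in either comparison, at -0.04 with miR-34a-RS and -0.07 with miR-34a-WT.

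Of the 6 tested transcription factors, 1 rose and 1 fell with miR-34a-WT and 1 rose with miR-34a-RS. ATF4 had the highest level of the members per kb of exon, at 207 CPM per kb in control, followed by PSAT1 at 109 and EIF4EBP1 at 71.2 CPM per kb. VLDLR and ASNS were the lowest tested, at 0.667 and 0.745 CPM per kb. The length here is that of all annotated exons of a gene merged, 9217 bases for PHGDH, and not that of 1 transcript. The order is therefore not one of abundance per transcript. ATF4 measured 439, 503, 475 and 485 CPM in miR-34a-RS replicates 1, 2, 3 and 5 and 425, 511, 475, 494 and 485 CPM in miR-34a-WT replicates 1 to 5, against 499.7, 544, 499.8, 516 and 545 CPM in control. Replicate 1 was the lowest of both microRNA groups, and the replicate 2 library of each reached into the range of control. The log2 fold change was -0.13 (SE 0.05, adjusted p = 0.051) with miR-34a-RS and -0.12 (SE 0.05, adjusted p = 0.0473) with miR-34a-WT in edgeR's quasi-likelihood test, Benjamini-Hochberg adjusted, values of the same size on different sides of the threshold. The miR-34a-WT call was lost in 15 of 22 alternative settings, among them the ones without all 3 replicate 2 libraries (adjusted p = 0.0816), without control replicates 2 (adjusted p = 0.195), 3 (0.0591), 4 (0.0855) or 5 (0.109) and without miR-34a-WT replicates 1 (0.163), 3 (0.141), 4 (0.0816) or 5 (0.0619).

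DDIT3 (CHOP), a C/EBP family factor of prolonged stress, was scarce. It measured 4.81, 6.93, 4.44 and 5.02 CPM in miR-34a-RS replicates 1, 2, 3 and 5 and 4.65, 5.38, 4.07, 4.94 and 5.08 CPM in miR-34a-WT replicates 1 to 5, against 3.98, 4.78, 3.20, 3.91 and 3.91 CPM in control. Replicate 2 was the highest library in each group, and the groups overlapped. DDIT3 rose with miR-34a-RS by 0.41 on the log2 scale (SE 0.13, adjusted p = 0.0117 in edgeR's quasi-likelihood test, Benjamini-Hochberg adjusted), a call that was lost without miR-34a-RS replicate 2 (log2 fold change 0.26, adjusted p = 0.0941), and stood at 0.29 (SE 0.12, adjusted p = 0.0629) with miR-34a-WT, where it passed without the replicate 2 libraries (0.0194). Part of its exons lies opposite those of MARS1, whose level per length in control was 45.8 CPM per kb of exon beside 3.03 for DDIT3, and the counts cannot tell their reads apart there. ATF5, a relative of ATF4 that is also controlled by translation, rose by 0.21 (SE 0.07) on the log2 scale with miR-34a-WT, a call lost without the replicate 2 libraries (adjusted p = 0.102), and stood at 0.15 (SE 0.07) with miR-34a-RS. ATF3, CEBPB and CEBPG did not pass the test in either comparison, with log2 fold changes of -0.04, 0.26 and 0.00 with miR-34a-RS and -0.19, 0.13 and 0.04 with miR-34a-WT.

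Of the 5 tested feedback and other stress targets, TRIB3 fell with both microRNAs. TRIB3 encodes a pseudokinase that is induced by ATF4 and CHOP and restrains them in turn, and its gene lies at chr20:362835-397559 on the plus strand of GRCh38. It measured 18.6, 23.8, 17.4 and 20.1 CPM in miR-34a-RS replicates 1, 2, 3 and 5 and 14.1, 19.0, 15.9, 14.9 and 14.9 CPM in miR-34a-WT replicates 1 to 5, against 24.6, 30.5, 24.4, 27.1 and 27.4 CPM in control. All 9 microRNA libraries lay below all 5 control libraries, and replicate 2 was the highest in each group. The log2 fold change was -0.43 (SE 0.09, 95% interval -0.61 to -0.25, adjusted p = 0.000484) with miR-34a-RS and -0.76 (SE 0.09, 95% interval -0.94 to -0.59, adjusted p = 1.12e-07) with miR-34a-WT, in edgeR's quasi-likelihood test, Benjamini-Hochberg adjusted.

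VLDLR, a lipoprotein receptor that ATF4 induces, rose by 0.32 (SE 0.10) on the log2 scale with miR-34a-WT, a call lost without control replicate 3 (adjusted p = 0.0599), and stood at 0.21 (SE 0.11) with miR-34a-RS. DDIT4 (REDD1), an inhibitor of mTORC1, did not pass the test, at 0.25 (SE 0.18) with miR-34a-RS and 0.35 (SE 0.17) with miR-34a-WT, and its libraries spread widely, over 102 to 124 CPM with miR-34a-RS and 94.7 to 162 CPM with miR-34a-WT, against 68.9 to 126 CPM in control. CHAC1, a glutathione-degrading enzyme and a sensitive ATF4 target, had log2 fold changes of -0.14 (SE 0.31) with miR-34a-RS and -0.34 (SE 0.30) with miR-34a-WT, with wide 95% intervals of -0.81 to 0.53 with miR-34a-RS and -0.99 to 0.31 with miR-34a-WT. STC2, a secreted glycoprotein, stood at -0.19 (SE 0.08) with miR-34a-RS and -0.15 (SE 0.08) with miR-34a-WT and did not pass the test in either.

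**Figure D2:**
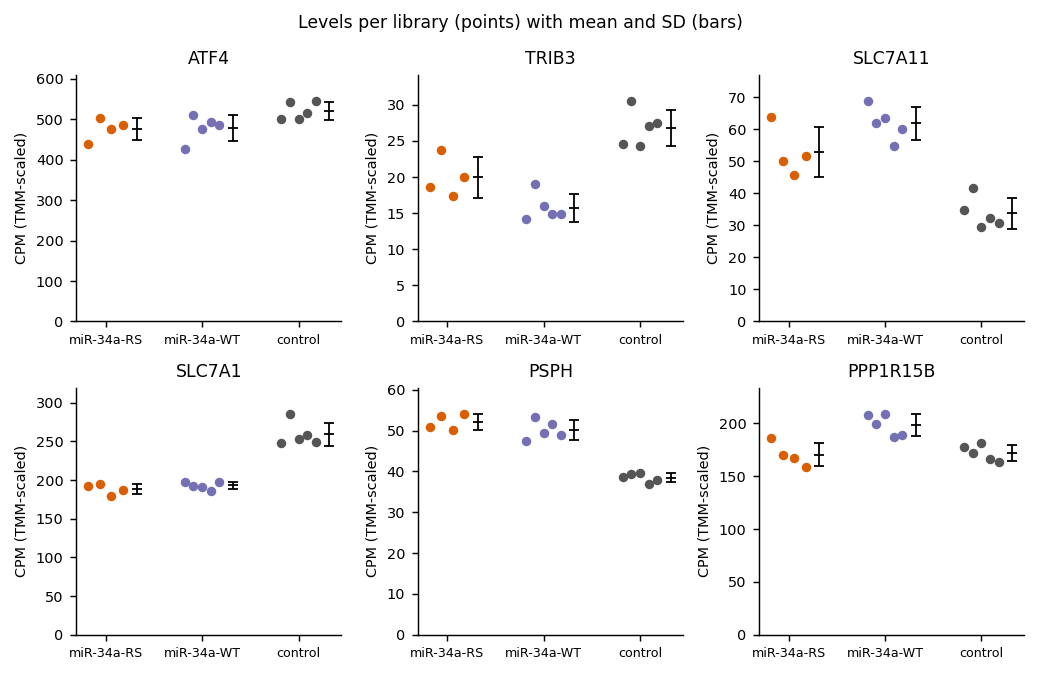
Level in CPM (y axis of each panel, starting at 0) of ATF4, TRIB3, SLC7A11, SLC7A1, PSPH and PPP1R15B in each library (points) of the miR-34a-RS, miR-34a-WT and control groups (x axis), with the group mean as a dash and the SD as a bar beside the points. TRIB3 lies at 17.4 to 23.8 CPM with miR-34a-RS and 14.1 to 19.0 CPM with miR-34a-WT, below the control libraries at 24.4 to 30.5 CPM, and SLC7A11 lies above its control libraries in both microRNA groups.

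The 7 amino acid transporters split by direction. With miR-34a-WT 2 rose and 3 fell, and with miR-34a-RS 2 rose and 4 fell. SLC7A11 (xCT) is the subunit of the exchanger that imports cystine for glutathione synthesis and exports glutamate, and its gene lies at chr4:138164097-138242349 on the minus strand. It measured 64.0, 50.1, 45.9 and 51.7 CPM in miR-34a-RS replicates 1, 2, 3 and 5 and 68.9, 61.9, 63.7, 54.8 and 60.3 CPM in miR-34a-WT replicates 1 to 5, against 34.8, 41.8, 29.5, 32.2 and 30.9 CPM in control. Every microRNA library lay above every control library, while the 2 microRNA groups overlapped. SLC7A11 rose by 0.64 (SE 0.10, 95% interval 0.43 to 0.85, adjusted p = 4.28e-05) with miR-34a-RS and by 0.87 (SE 0.09, 95% interval 0.67 to 1.06, adjusted p = 4.18e-07) on the log2 scale with miR-34a-WT, in edgeR's quasi-likelihood test, Benjamini-Hochberg adjusted.

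SLC3A2 (4F2hc), the heavy chain that SLC7A11 and SLC7A5 share, did not pass the test, at -0.09 with either microRNA. SLC7A5 (LAT1), the light chain that imports leucine and other large neutral amino acids, fell by 0.18 (SE 0.05) with miR-34a-RS and by 0.24 (SE 0.04) on the log2 scale with miR-34a-WT. SLC7A1 (CAT1), the main importer of arginine and lysine in many cells, is given for each library because of its separation: it measured 192, 195, 179 and 188 CPM in miR-34a-RS replicates 1, 2, 3 and 5 and 198, 192, 192, 186 and 198 CPM in miR-34a-WT replicates 1 to 5, against 249, 285, 254, 259 and 249 CPM in control. The gap between the microRNA libraries and control was wider than the range of any group. SLC7A1, whose 7mer-m8 is printed above, fell by 0.46 (SE 0.05, adjusted p = 1.13e-08) with miR-34a-RS and by 0.42 (SE 0.04, adjusted p = 1.14e-08) on the log2 scale with miR-34a-WT, in edgeR's quasi-likelihood test, Benjamini-Hochberg adjusted.

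The neutral amino acid transporters did not move together. SLC38A2 (SNAT2), a sodium-coupled importer of small neutral amino acids that amino acid lack induces, rose by 0.23 (SE 0.05) with miR-34a-RS and by 0.24 (SE 0.05) on the log2 scale with miR-34a-WT, with no overlap with control. SLC1A4 (ASCT1), an exchanger of serine and alanine that carries a 7mer-m8, fell by 0.22 (SE 0.06) with miR-34a-RS, a call lost without control replicate 2 (adjusted p = 0.0734), and by 0.32 (SE 0.06) with miR-34a-WT. SLC1A5 (ASCT2), the glutamine exchanger, fell by 0.19 (SE 0.06) with miR-34a-RS and stood at -0.13 (SE 0.05) with miR-34a-WT, which missed the test. Its miR-34a-RS call was lost without control replicate 2 (adjusted p = 0.0511), miR-34a-RS replicate 1 (0.0826) or all 3 replicate 2 libraries (0.0544).

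Of the 6 enzymes of serine synthesis and one-carbon metabolism, 2 rose and 2 fell with miR-34a-WT, and 2 rose with miR-34a-RS. The 3 steps of serine synthesis did not share a direction. PHGDH, which catalyses the first step, fell by 0.15 (SE 0.05) on the log2 scale with miR-34a-WT and stood at -0.13 (SE 0.05) with miR-34a-RS. The call was lost without control replicate 2 (adjusted p = 0.112), 4 (0.0523) or 5 (0.0691), miR-34a-WT replicate 1 (0.0689) or 3 (0.0728), or all 3 replicate 2 libraries (0.0899). PSAT1, the aminotransferase of the second step, rose by 0.17 (SE 0.04) with miR-34a-RS and by 0.23 (SE 0.04) with miR-34a-WT. PSPH, the phosphatase that releases serine, measured 50.8, 53.5, 50.2 and 54.0 CPM in miR-34a-RS replicates 1, 2, 3 and 5 and 47.4, 53.4, 49.3, 51.7 and 48.9 CPM in miR-34a-WT replicates 1 to 5, against 36.8 to 39.7 CPM in the 5 control libraries, and is given at this length because of that separation. All microRNA libraries lay above all control libraries, with little spread within groups. PSPH rose by 0.44 (SE 0.05, adjusted p = 6.85e-08) with miR-34a-RS and by 0.38 (SE 0.05, adjusted p = 2.19e-07) on the log2 scale with miR-34a-WT, in edgeR's quasi-likelihood test, Benjamini-Hochberg adjusted.

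Among the mitochondrial one-carbon enzymes, SHMT2, which passes the one-carbon unit of serine to folate, carries the member site with AGCT and is therefore given for each library. It measured 192, 216, 215 and 217 CPM in miR-34a-RS replicates 1, 2, 3 and 5 and 188, 202, 189.8, 197 and 201 CPM in miR-34a-WT replicates 1 to 5, against 205, 235, 217, 224 and 227 CPM in control. All miR-34a-WT libraries lay below all control libraries, and 3 of the 4 miR-34a-RS libraries lay above every miR-34a-WT library, with replicate 1 apart at 192 CPM. SHMT2 fell by 0.18 (SE 0.05, adjusted p = 0.00213) on the log2 scale with miR-34a-WT and stood at -0.08 (SE 0.05, adjusted p = 0.217) with miR-34a-RS, in edgeR's quasi-likelihood test, Benjamini-Hochberg adjusted. MTHFD2, the next enzyme of that pathway, and ALDH1L2, which oxidises formyl-folate, did not pass the test. MTHFD2 stood at -0.06 with miR-34a-RS and -0.02 with miR-34a-WT, and ALDH1L2 at 0.15 with miR-34a-RS and 0.16 with miR-34a-WT.

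The 5 other amino acid enzymes held 1 fall in miR-34a-RS, 2 falls in miR-34a-WT and no rise. PYCR1, the mitochondrial enzyme that completes proline synthesis, fell by 0.24 (SE 0.07) with miR-34a-RS, a call lost without miR-34a-RS replicate 1 (log2 fold change -0.16, adjusted p = 0.0686), and by 0.32 (SE 0.07) on the log2 scale with miR-34a-WT. PCK2, the mitochondrial carboxykinase that ATF4 induces, fell by 0.27 (SE 0.09) with miR-34a-WT and stood at -0.13 (SE 0.10) with miR-34a-RS. The PCK2 call was lost without control replicate 2 (log2 fold change -0.17, adjusted p = 0.115) or 5 (0.0554) or miR-34a-WT replicate 1 (0.0584), 3 (0.0706) or 4 (0.0768). GPT2, an alanine aminotransferase, and CTH, which makes cysteine from cystathionine, did not pass the test, at -0.11 and 0.21 with miR-34a-RS and -0.12 and 0.16 with miR-34a-WT. ASNS, the asparagine synthetase and a classical ATF4 target, measured 3.14, 3.25, 2.33 and 3.30 CPM in miR-34a-RS replicates 1, 2, 3 and 5 and 3.48, 3.20, 3.37, 3.45 and 3.18 CPM in miR-34a-WT replicates 1 to 5, against 3.94, 3.20, 2.58, 3.10 and 3.77 CPM in control. The groups overlapped, and the log2 fold changes were -0.13 (95% interval -0.39 to 0.12) with miR-34a-RS and 0.02 (95% interval -0.22 to 0.26) with miR-34a-WT. ASNS had 1390 counts over all libraries, and 1985 of its 4455 exon bases are shared with the same-strand gene AC079781.5 in GENCODE 29. How the counting treated reads in such overlaps is not given in the sources used here, so the level of ASNS is uncertain.

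The 6 listed tRNA synthetases, which load tRNAs with their amino acid, held no fall. In miR-34a-RS 3 of them rose, and in miR-34a-WT 2. WARS1 (tryptophan) lay at 183 to 196 CPM with miR-34a-RS and 176 to 184 CPM with miR-34a-WT, against 151 to 161 CPM in control, so that both groups lay wholly above control. It rose by 0.29 (SE 0.04, adjusted p = 2.15e-06) with miR-34a-RS and by 0.22 (SE 0.04, adjusted p = 3.54e-05) on the log2 scale with miR-34a-WT, in edgeR's quasi-likelihood test, Benjamini-Hochberg adjusted. NARS1 (asparagine) rose by 0.11 (SE 0.04) with miR-34a-RS and by 0.14 (SE 0.04) with miR-34a-WT, and SARS1 (serine) rose by 0.15 (SE 0.04) with miR-34a-RS and stood at 0.07 (SE 0.04) with miR-34a-WT. The miR-34a-RS call of NARS1 was lost in 7 of 22 alternative settings, among them the ones without control replicate 4 (adjusted p = 0.0809) or 5 (0.0983), miR-34a-RS replicate 1 (0.0717) or 2 (0.113), or all 3 replicate 2 libraries (0.123). GARS1, AARS1 and MARS1 (glycine, alanine and methionine) did not pass the test, with log2 fold changes of -0.01 to 0.05 with miR-34a-RS and 0.02 to 0.06 with miR-34a-WT.

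The comparison of miR-34a-RS with miR-34a-WT addresses what guide positions 13 and 14 add. Libraries with the same replicate number deviated together in these 2 groups. In the fit without that number as a block, which gives the values here unless the block is named, no member was higher and 1 was lower, PPP1R15B; with the block 2 were higher and 2 lower. The counts without the block stand against 1.56% of all tested genes called, 1.03% higher and 0.535% lower. Those with it stand against 625 higher and 629 lower of the 18321 genes tested. At an unadjusted p under 0.05 there were 2 higher and 3 lower members, against 1168 higher and 1059 lower of all tested genes. DESeq2's Wald test called 1 higher, TRIB3, beside 1 lower, against 279 higher and 230 lower of all tested genes. The median log2 fold change of the tested members was 0.01, beside -0.003 for all tested genes. PPP1R15B was lower with miR-34a-RS by 0.22 on the log2 scale (SE 0.05, 95% interval -0.32 to -0.12, adjusted p = 0.0218 in edgeR's quasi-likelihood test, Benjamini-Hochberg adjusted). Its call was lost without miR-34a-RS replicate 2 (adjusted p = 0.0744), 3 (0.0924) or 5 (0.113) and without miR-34a-WT replicate 1 (0.0668) or 3 (0.0871), and without all 3 replicate 2 libraries (0.185), with a log2 fold change of -0.22 to -0.19 in these fits.

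The level of TRIB3 in miR-34a-RS was 0.34 higher on the log2 scale than in miR-34a-WT (SE 0.09, 95% interval 0.15 to 0.52), at 17.4 to 23.8 CPM in miR-34a-RS against 14.1 to 19.0 CPM in miR-34a-WT, and missed the threshold with an adjusted p of 0.0651 in edgeR's quasi-likelihood test, Benjamini-Hochberg adjusted. With no filter on low counts, SLC7A11 passed as lower in miR-34a-RS (adjusted p = 0.0443) and TRIB3 as higher (0.000262). TRIB3 also passed with DESeq2's Wald test (0.0187) and without miR-34a-RS replicates 1 (0.0446) or 3 (0.0407) or miR-34a-WT replicate 2 (0.0113). With the replicate number as a block, the members called higher by the same edgeR test were TRIB3 at 0.33 (adjusted p = 0.000237) and SHMT2 at 0.11 (adjusted p = 0.0434), and those called lower were PPP1R15B at -0.24 (adjusted p = 2.19e-05) and EIF2AK1 at -0.12 (adjusted p = 0.0202). Without the block SHMT2 stood at 0.10 (95% interval 0.00 to 0.20, adjusted p = 0.389) and EIF2AK1 at -0.12 (adjusted p = 0.218), and SLC7A11 stood at -0.23 (95% interval -0.43 to -0.02, adjusted p = 0.344). For the members not yet named here the 95% intervals of this difference lay within -0.41 to 0.38, apart from those of CHAC1 (-0.49 to 0.88), ATF3 (-0.41 to 0.70) and DDIT4 (-0.49 to 0.30).

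Grouped by seed match, the members compared with control as follows. Of the 5 members with a 7mer-m8 in the 3′ UTR, 4 fell with miR-34a-WT (EIF2AK1, SLC7A1, SLC1A4 and SHMT2), 3 fell with miR-34a-RS (the same without SHMT2) and none rose. Among the 2412 tested genes with an 8mer or 7mer-m8, 45.5% (miR-34a-WT) and 41.3% (miR-34a-RS) fell. The fifth member, ALDH1L2, whose match is printed above, stood at 0.15 (SE 0.08) with miR-34a-RS and 0.16 (SE 0.08) with miR-34a-WT. The 3 tested members with only a 7mer-A1 or 6mer, PPP1R15B, STC2 and VLDLR, held 2 rises and no fall with miR-34a-WT and no call with miR-34a-RS. Of the 2368 tested genes of that class, 16.5% rose and 30.7% fell with miR-34a-RS, and 21.2% rose and 31.6% fell with miR-34a-WT. Of the 34 members with no match, 9 rose and 6 fell with miR-34a-WT and 9 rose and 4 fell with miR-34a-RS. Of the 8831 tested genes with no match, 2043 rose (23.1%) and 1239 fell with miR-34a-RS, and 2397 rose (27.1%) and 1524 fell with miR-34a-WT. With 5 members and 3 members in the classes with a match, these shares are descriptions.

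**Figure D3:**
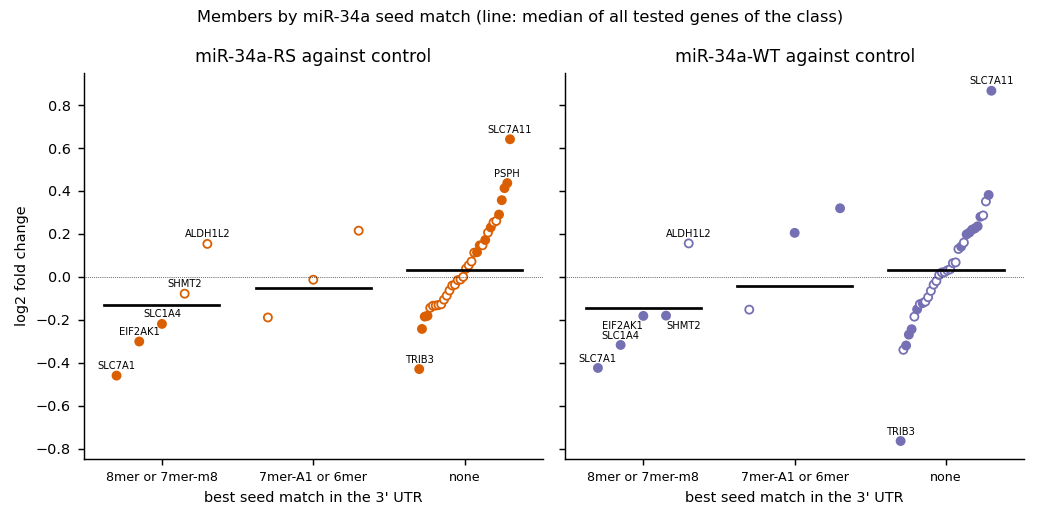
Log2 fold change against control (y axis) of the tested members by the longest seed match in the 3′ UTR (x axis: 8mer or 7mer-m8, 7mer-A1 or 6mer, none), with miR-34a-RS in the left panel and miR-34a-WT in the right, each point 1 member (filled where the adjusted p is under 0.05) and each line the median of all tested genes of the class. Of the 5 members with a 7mer-m8, 4 lie below 0 in each panel, and ALDH1L2 lies above.

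SHMT2 was the 1 member whose 3′ UTR match is accompanied by AGCT within 1 to 15 bases, a feature of 223 tested genes (1.64% of those with a 3′ UTR). Between the microRNAs 6.28% of these 223 genes were called higher in miR-34a-RS, against 2.56% of the 2189 genes with an 8mer or 7mer-m8 and no AGCT. These calls are without the replicate number as a block, and calls with it were not counted for these genes. A further SHMT2 match of 8 bases with AGCT, 9 target bases away, lies at chr12:57233820-57233847, upstream of the 3′ UTR of that transcript. It is shown with the 8mer and AGCT in capitals.
SHMT2, upstream of the 3′ UTR: gtgctagAGCTtgtatccatCACTGCCA

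A promoter motif was common among the members. The core of the C/EBP-ATF composite element, searched as TGATGNAA on both strands in the 300-base RefSeq promoters of GRCh38.p14 (250 bases before to 50 after each start), occurred in 13 of the 34 members with a promoter in the table (38.2%), against 4.46% of the 27305 genes there. The 13 were PPP1R15B, ATF3, CEBPG, CHAC1, SLC3A2, SLC7A1, SLC1A5, SLC1A4, ASNS, GARS1, AARS1, MARS1 and NARS1. Since the members were listed as ATF4 pathway genes, the share is a description of that list. Stretches of 24 bases on the strand of the gene show the motif in capitals for the amino acid response gene ASNS (chr7:97872461-97872484, minus strand), for CHAC1 (chr15:40953254-40953277, plus strand, motif on the other strand), for ATF3 (chr1:212565208-212565231, plus strand), for NARS1 (chr18:57621807-57621830, minus strand) and for PPP1R15B (chr1:204412029-204412052, minus strand).
ASNS promoter: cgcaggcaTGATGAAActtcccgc
CHAC1 promoter: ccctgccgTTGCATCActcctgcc
ATF3 promoter: ggtcaggaTGATGGAAggctgtca
NARS1 promoter: acgctctcTGATGCAAcgccggaa
PPP1R15B promoter: gccccggcTGATGCAAcctcacgc

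The members with this motif did not move one way. With miR-34a-WT 2 of the 13 rose and 2 fell, against 7 and 5 of the 21 members whose promoter had no match. With miR-34a-RS 1 rose and 3 fell, against 6 and 2 of the 21. Of the 5 promoters printed above, those of ASNS, CHAC1 and ATF3 belong to members that passed no test against control. NARS1 rose with both microRNAs and PPP1R15B rose with miR-34a-WT. The members with the motif that fell were SLC7A1 and SLC1A4, with both microRNAs, and SLC1A5, with miR-34a-RS, and their promoters are not printed.

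A further pattern, noticed after the values were seen, ran with the replicate number. The replicate 2 library was the highest of its group in all 3 groups for 10 of the 42 tested members (23.8%), against 1.36% of all tested genes. These were ATF3, DDIT3, CEBPG, TRIB3, CHAC1, VLDLR, GPT2, CTH, PCK2 and SARS1. The margin could be small, as for GPT2 in control, at 79.60 CPM in replicate 2 and 79.47 CPM in replicate 5. Replicate 1 was likewise the lowest library in all 3 groups for 10 members, against 1868 of the 18321 tested genes. CHAC1 measured 3.05, 5.88, 2.33 and 3.79 CPM in miR-34a-RS replicates 1, 2, 3 and 5 and 2.90, 5.19, 2.27, 2.39 and 3.49 CPM in miR-34a-WT replicates 1 to 5, against 3.53, 5.82, 2.93, 3.39 and 4.99 CPM in control. Replicate 2 stood above every other library of each group. Its level was 1.92 times the mean of the other libraries with miR-34a-RS, 1.88 times with miR-34a-WT and 1.57 times in control.

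ATF3, an early stress factor, had a replicate 2 level of 39.6 CPM with miR-34a-RS, 33.8 CPM with miR-34a-WT and 44.2 CPM in control, against 19.7 to 27.7, 19.8 to 25.8 and 21.7 to 27.9 CPM in the other libraries of these groups. CTH stood at 1.24, 1.23 and 1.25 times the mean of the others in miR-34a-RS, miR-34a-WT and control, PCK2 at 1.18, 1.22 and 1.27 times and TRIB3 at 1.27, 1.27 and 1.18 times. By rank, none of EIF2AK1, EIF2AK3, EIF2AK4, EIF2S1, PPP1R15A and PPP1R15B was highest in replicate 2 of all 3 groups. PPP1R15A came close to this pattern. Its replicate 2 library was the highest with miR-34a-RS, at 32.1 CPM, and in control, at 25.5 CPM. With miR-34a-WT its replicate 2 library, at 28.04 CPM, lay below only replicate 5, at 28.9 CPM. Genes of the mitochondrial genome had their lowest share of counts in the replicate 2 library of each group. This share was 2.19% in miR-34a-RS replicate 2, 2.60% in miR-34a-WT replicate 2 and 2.75% in control replicate 2. The part of this share in the replicate 2 pattern was not tested. Without the 3 replicate 2 libraries, 12 members rose and 8 fell with miR-34a-WT, 8 rose and 6 fell with miR-34a-RS, and none passed the test between the microRNAs (edgeR's quasi-likelihood test, Benjamini-Hochberg adjusted). Of the 18448 genes tested in that fit, 3021 rose and 3263 fell with miR-34a-WT, and 2360 rose and 2650 fell with miR-34a-RS. Between the microRNAs 79 of these genes were higher and 17 lower with miR-34a-RS. The labels do not say what a replicate number marks.

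**Figure D4:**
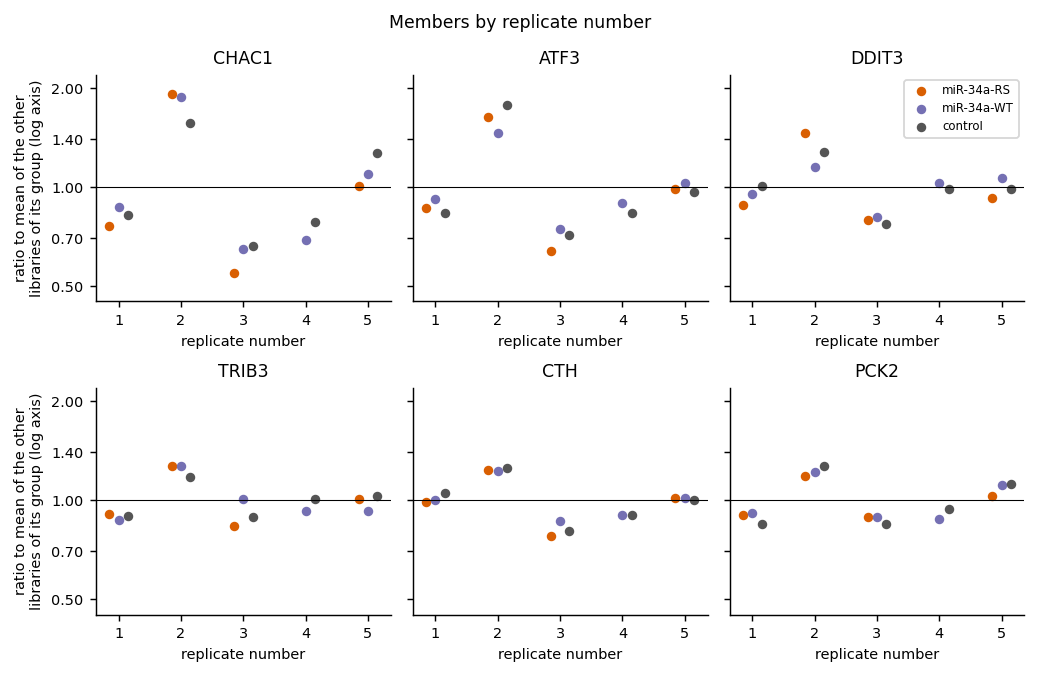
Ratio of each library to the mean of the other libraries of its group (y axis, log axis) by replicate number (x axis) in the miR-34a-RS, miR-34a-WT and control groups, for CHAC1, ATF3, DDIT3, TRIB3, CTH and PCK2 (panels), each point 1 library. Replicate 2 stands above 1 in each panel and group, up to 1.92 for CHAC1 with miR-34a-RS.

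Other genes of the pathway, 113 in lists that the members are not part of, gave the surroundings of these changes. Beside them stand all tested genes, of which 16.2% rose and 18.4% fell with miR-34a-RS, and 18.9% rose and 21.3% fell with miR-34a-WT. Of 17 other cytosolic tRNA synthetases 6 rose and 1 fell with miR-34a-RS, and 9 rose and 1 fell with miR-34a-WT, among them FARSB (phenylalanine) at 0.18 with miR-34a-RS and 0.34 with miR-34a-WT, HARS1 (histidine) at 0.13 with miR-34a-RS and 0.19 with miR-34a-WT and QARS1 (glutamine) at -0.14 with miR-34a-RS and -0.19 with miR-34a-WT, all log2 fold changes. Of 17 mitochondrial synthetases 3 rose and 1 fell with miR-34a-RS, and 4 rose and 4 fell with miR-34a-WT, among them WARS2 at 0.20 with miR-34a-RS and 0.33 with miR-34a-WT, FARS2 at 0.29 with miR-34a-RS and 0.23 with miR-34a-WT and EARS2 at -0.21 with miR-34a-RS and -0.19 with miR-34a-WT. Of 18 further genes of eIF2, its exchange factor eIF2B and the sensors, 5 rose and 3 fell with miR-34a-RS, and 6 rose and 2 fell with miR-34a-WT, among them IMPACT, an inhibitor of GCN2, at 0.37 with miR-34a-RS and 0.47 with miR-34a-WT, EIF2B3, an eIF2B subunit, at 0.29 with miR-34a-RS and 0.33 with miR-34a-WT and PPP1CA, a catalytic subunit of protein phosphatase 1, at -0.24 in both.

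Of the 21 other amino acid transporters tested, 2 rose and 10 fell with miR-34a-RS, and 2 rose and 9 fell with miR-34a-WT, where 16.2% of all tested genes rose and 18.4% fell with miR-34a-RS and 18.9% rose and 21.3% fell with miR-34a-WT. Their median log2 fold change was -0.16 with miR-34a-RS, beside -0.01 for all tested genes, and -0.11 with miR-34a-WT, beside -0.02. SLC7A8 (LAT2) stood at -0.49 with miR-34a-RS and -0.73 with miR-34a-WT, SLC6A9 (GLYT1), the glycine transporter, at -0.69 with miR-34a-RS and -0.92 with miR-34a-WT, and SLC43A2 (LAT4) at -0.37 with miR-34a-RS and -0.51 with miR-34a-WT. Of 37 other tested ATF4 target and amino acid enzyme genes 5 rose and 8 fell with miR-34a-RS, and 5 rose and 13 fell with miR-34a-WT. TRIB2, a relative of TRIB3, stood at -0.55 with miR-34a-RS and -0.61 with miR-34a-WT, and SHMT1, the cytosolic counterpart of SHMT2, at -0.27 with miR-34a-RS and -0.37 with miR-34a-WT. ASS1, which makes argininosuccinate on the way to arginine, stood at -0.22 with miR-34a-RS and -0.55 with miR-34a-WT. It was the 1 gene of these 5 lists called between the microRNAs without the block. The level of ASS1 was higher with miR-34a-RS by 0.33 on the log2 scale (SE 0.06, adjusted p = 0.00477 in edgeR's quasi-likelihood test, Benjamini-Hochberg adjusted). Calls in these lists with the block were not counted.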

How the data were processed

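RNA from HEK293T cells was made into TruSeq RNA v2 libraries, per the labels' protocols. The authors deposited whole-number read counts per gene, one table of 63140 genes by 14 libraries, not normalised as far as the values show. The submitters' processing notes name GRCh38 as build, Subread 2.0.3 with featureCounts, STAR 2.7.11a and edgeR 3.42.4. The annotation release and strand setting are not given in the sources used here. Columns matched the labels of 1 sample each.

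Differences were tested in R 4.3.3 with edgeR 4.0.16 (TMM factors, filterByExpr by group, robust quasi-likelihood test, 1 fit of 3 group means over all 14 libraries), with Benjamini-Hochberg adjustment over 18321 genes, a threshold of 0.05 and 95% intervals. Values in CPM are scaled by TMM. The common biological coefficient of variation was 0.0617. The fit was tested on simulated data first. Exon lengths and transcripts came from GENCODE 29, promoters and the microRNA from RefSeq. Of each gene's protein-coding transcripts with a 3′ UTR (minimum 20 bases), the one whose 3′ UTR was longest was searched.

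Replicate numbers are shared by the groups. Over 9901 genes, deviations of same-numbered libraries from their group means correlated at 0.396 to 0.779 for the pair of microRNA groups. These were therefore taken as paired. For that comparison, values with the replicate number as a block stand beside those without it for each member whose call changes. Calls of the other lists, and of all genes by seed match, were taken without the block. Against control, 3 of 4 pairs with miR-34a-RS (0.237 to 0.521) and 4 of 5 with miR-34a-WT (0.372 to 0.599) correlated, but the pairs numbered 2 did not (-0.0569 with miR-34a-RS, -0.203 with miR-34a-WT), and not every pair passed 0.1, the limit used.

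The members and lists were chosen with earlier results of these data known. Any member may be named. Values in each library are given for members past the threshold with a log2 fold change of at least 0.5 in either direction, and for ATF4, ASNS, TRIB3 and DDIT3. Of each of the 5 other lists the 3 genes with the smallest adjusted p in any comparison are named. Values in each library of PPP1R15B, SLC7A1, PSPH, SHMT2 and CHAC1 were added after they were seen. Alternatives were other scaling factors, filters, DESeq2 1.42.0, a fit of 2 groups, the replicate block and leaving out each library, and, chosen after seeing the data, leaving out all 3 replicate 2 libraries.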

Additional observations from a re-analysis of the deposited data

Results flagged for a closer look

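Among 126 groups of libraries of the tested members, 8 held a library whose gap to its nearest neighbour was large for the range of its group, where chance gives about 1 in 20, or 6.3. Control replicate 2 stood high for ATF3, at 44.2 CPM against 21.7 to 27.9 CPM in the other control libraries, for SLC7A1, at 285 CPM against 249 to 259 CPM, and for SLC1A4, at 22.4 CPM against 18.6 to 19.6 CPM. In miR-34a-RS, SLC38A2 stood high in replicate 1, at 306 CPM against 265 to 269 CPM, SHMT2 stood low in replicate 1, at 192 CPM against 215 to 217 CPM, and ASNS stood low in replicate 3, at 2.33 CPM against 3.14 to 3.30 CPM. In miR-34a-WT, SLC1A5 stood low in replicate 1, at 163 CPM against 183 to 190.3 CPM, and STC2 stood low in replicate 3, at 75.0 CPM against 93.9 to 97.3 CPM.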

How the results depend on the processing

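No called member changed sign under any of the 22 alternatives run. Leaving out 1 library at a time gave 10 to 14 members higher and 7 to 12 lower with miR-34a-WT than control. With miR-34a-RS it gave 7 to 13 and 5 to 9, and between the microRNAs 0 to 1 and 0 to 1. Of the 18184 to 18591 genes tested in these fits, 3228 to 3728 rose and 3328 to 3971 fell with miR-34a-WT. With miR-34a-RS 2621 to 3335 rose and 2846 to 3396 fell. Between the microRNAs 111 to 391 were higher and 31 to 339 lower. The median log2 fold change of the members for miR-34a-RS against control then ranged from -0.0246 to 0.0478, the highest without control replicate 2. The setting without all 3 replicate 2 libraries, chosen after seeing the data, gave 0 members higher and 0 lower between the microRNAs. With the replicate block, 15 members were higher and 13 lower with miR-34a-RS than control, and 14 higher and 16 lower with miR-34a-WT. Of the 18321 genes tested, 3678 were higher and 4037 lower with miR-34a-RS in that fit, and 4169 higher and 4648 lower with miR-34a-WT. Same-numbered microRNA and control libraries correlated except those numbered 2, and 2 of 4 miR-34a-RS and 3 of 5 miR-34a-WT libraries correlated best with the control library of their own number. Between the microRNAs, 2 members were higher and 2 lower with the block, and 1 and 2 with no filter on low counts. DESeq2's Wald test called 1 higher and 1 lower. Over all genes, no filter gave 259 higher and 85 lower of 41463 tested, and DESeq2's Wald test 279 and 230 of 18321. Over all genes the block gave 625 higher and 629 lower between the microRNAs, against 188 and 98 without it. The cause was not tested. Of 22 settings, calls were lost in 15 for ATF4, 7 for NARS1, 6 each for PHGDH and PPP1R15B, 5 for PCK2, 3 for SLC1A5 and 1 each for DDIT3, ATF5, VLDLR, PYCR1 and SLC1A4. At the lowest levels, as of ASNS, DDIT3 and CHAC1, and with 4 or 5 libraries a group, small differences were not detectable.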
